A study of Saccharomyces cerevisiae with 12 samples.

Results

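HSP12 (YFL014W), SIP18 (YMR175W), GRE1 (YPL223C), TMA10 (YLR327C), STF2 (YGR008C) and DDR48 (YMR173W) encode very hydrophilic proteins, most of them small, that budding yeast makes under stress. They are 6 of the 6845 features in the table of the bikaverin strains and of the 6818 in the table of the pRS416 strains, and all 6 are listed in both. They were chosen by identifier, with their levels in these libraries already known, so their levels and differences, with intervals from the fit, are a description, and nothing is read from whether they were called. RNA was sequenced from 12 Saccharomyces cerevisiae samples taken at 36 h, in 4 groups of 3 libraries. Strains YJ-06 (high level of S-adenosylmethionine, SAM) and YJ-04 (low SAM) both carry an introduced set of genes for the fungal pigment bikaverin. Strains YJ-09 (high SAM) and YJ-08 (low SAM) both carry pRS416, a shuttle plasmid with a URA3 marker. SAM is the methyl donor of most cellular methylation. The sources used here do not say how SAM was raised, from which parent the strains come or in what medium they grew, and each group is 1 strain. The labels do not say that the 3 libraries of a group came from separate cultures, so the spread behind each p-value is that between these libraries and may be technical.

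Hydrophilins are proteins rich in glycine and poor in hydrophobic residues. They stay soluble on boiling and are found from bacteria to plants, where the late embryogenesis abundant proteins of drying seeds belong to the same class. In budding yeast such genes are known to be induced by osmotic stress, by drying and on entry into stationary phase. Much of this response runs through the transcription factors Msn2 and Msn4, which bind the stress response element, whose core is AGGGG, and which protein kinase A keeps out of the nucleus during growth on glucose. HSP12 encodes a membrane-associated small heat shock protein. SIP18 encodes a phospholipid-binding hydrophilin known for desiccation tolerance, and GRE1 its paralog. STF2 encodes a hydrophilin first described with the inhibitor of the mitochondrial ATP synthase, and TMA10 its ribosome-associated paralog. DDR48 encodes a DNA damage-responsive protein built of serine- and asparagine-rich repeats.

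The stretches before 4 of the genes are shown because they hold at least 2 copies of the AGGGG core within 500 bases of the start codon. They are written 5′ to 3′ on the strand of the gene from RefSeq's R64 genome, the build named for the deposited values. Capitals mark the core, as AGGGG on the strand of the gene or as CCCCT where it lies on the other strand. The HSP12 stretch is chrVI:106806-107105 (plus strand), the SIP18 stretch is chrXIII:610566-610865 (plus strand), the STF2 stretch is chrVII:508365-508664 (minus strand) and the DDR48 stretch is chrXIII:608389-608688 (plus strand). The HSP12 stretch overlaps the annotated open reading frame YFL015C on the other strand, which was listed at a mean of no more than 1.60 FPKM in any group.
HSP12, 450 to 151 bases before the start: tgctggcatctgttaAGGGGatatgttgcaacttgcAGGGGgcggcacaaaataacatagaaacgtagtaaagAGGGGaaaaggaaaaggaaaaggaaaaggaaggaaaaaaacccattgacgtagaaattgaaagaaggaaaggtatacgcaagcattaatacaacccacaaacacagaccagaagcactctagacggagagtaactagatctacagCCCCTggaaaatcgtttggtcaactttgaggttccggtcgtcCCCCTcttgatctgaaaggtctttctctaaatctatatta
SIP18, 450 to 151 bases before the start: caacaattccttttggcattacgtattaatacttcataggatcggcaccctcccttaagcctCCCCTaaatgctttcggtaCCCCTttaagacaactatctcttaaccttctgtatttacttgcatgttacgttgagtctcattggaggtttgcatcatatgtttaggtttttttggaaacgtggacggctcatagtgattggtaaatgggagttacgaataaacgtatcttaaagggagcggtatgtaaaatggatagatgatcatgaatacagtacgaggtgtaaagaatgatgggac
STF2, 300 to 1 bases before the start: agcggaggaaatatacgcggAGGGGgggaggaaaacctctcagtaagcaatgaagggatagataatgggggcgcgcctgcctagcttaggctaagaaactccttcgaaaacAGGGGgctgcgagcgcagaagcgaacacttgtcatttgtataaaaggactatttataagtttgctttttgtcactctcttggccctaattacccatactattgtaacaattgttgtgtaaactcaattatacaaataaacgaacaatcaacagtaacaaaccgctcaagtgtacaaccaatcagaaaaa
DDR48, 300 to 1 bases before the start: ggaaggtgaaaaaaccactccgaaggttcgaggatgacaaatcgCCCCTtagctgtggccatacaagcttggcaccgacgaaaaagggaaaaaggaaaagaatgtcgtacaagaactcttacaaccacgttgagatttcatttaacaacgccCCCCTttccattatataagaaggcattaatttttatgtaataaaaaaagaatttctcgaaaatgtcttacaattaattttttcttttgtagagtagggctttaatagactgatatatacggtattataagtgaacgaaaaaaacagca

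HSP12 had 5 copies of AGGGG in the 500 bases before its start, and 0.2% of 6006 reference promoters of that length, HSP12's included, had 5 or more. SIP18, STF2 and DDR48 had 2 copies each, and 8.18% of promoters had 2 or more. TMA10 had 1 copy and GRE1 none, and 34.1% of promoters had at least 1. The copies of HSP12 stand in a group of 3 on the strand of the gene, which begin 435, 414 and 377 bases before the start, and a pair on the other strand, at 232 and 190 bases. In the narrower window of 250 bases before to 50 after the start, HSP12 held 2 copies, STF2 and DDR48 held 1 each, and SIP18, GRE1 and TMA10 held none, where 21.6% of 6007 promoters held any. The longer form AGGGGT was in none of the 6 narrow windows, against 5.41% of promoters, and in the wider window it was found before SIP18 alone, against 9.34% of promoters. Both strands were searched, and each AGGGGT is counted among the AGGGG copies too. HSP12, SIP18, STF2 and TMA10, with at least 1 copy in 500 bases, were lower in both high-SAM strains, as was GRE1 with none. DDR48, with 2 copies, was not lower in either. Whether the number of copies is related to the differences was not tested.

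**Figure D1:**
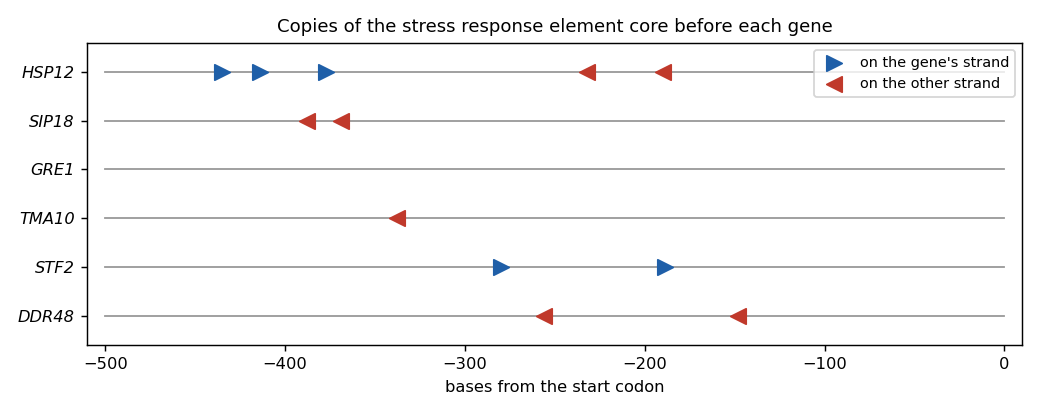
Position of each AGGGG core in the 500 bases before the start codon of each gene (x axis, bases from the start codon; 1 line per gene). Triangles pointing right are copies on the strand of the gene and triangles pointing left are copies on the other strand. HSP12 holds 5 copies and GRE1 holds none.

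Proteins were translated from the R64 coding sequences and compared on the 2 properties that define hydrophilins. Each of the 6 was within the most hydrophilic 1.90% and the most glycine-rich 1.07% of reference proteins. Glycine made up 11.9% of Hsp12, 12.7% of Sip18, 13.1% of Gre1, 11.6% of Tma10, 11.9% of Stf2 and 11.4% of Ddr48, against a median of 4.94% over 6002 proteins. Mean hydropathy on the Kyte-Doolittle scale, where lower is more hydrophilic, was -1.21 for Hsp12, -1.55 for Sip18, -1.85 for Gre1, -1.37 for Tma10, -1.61 for Stf2 and -1.96 for Ddr48, against a median of -0.39. Ddr48 ranked 3 and Gre1 ranked 4 among the most hydrophilic proteins, and Hsp12, the least hydrophilic of the set, ranked 114. Taking more than 6% glycine and a mean hydropathy below -1 as bounds, 75 proteins (1.25%) qualified, among them all 6. No other protein of the 6002 had both at least the glycine share of Ddr48 and at least the hydrophilicity of Hsp12, bounds that were set from the 6 proteins themselves. None of the 6 proteins has a cysteine, which holds for 9.58% of all proteins. Sip18 and Gre1 shared 45.7% of 70 aligned residues, and Tma10 and Stf2 shared 64.3% of 84. These shares are for a gap opening cost of 10 and an extension cost of 0.5. With costs of 5 and 1 the share was the same for Tma10 and Stf2, but Sip18 then shared 48.7% of 76 residues with Gre1 and 54.4% of 79 with Ddr48, which is not its paralog. In length the proteins run from 79 residues (Sip18) to 430 (Ddr48), and serine and asparagine make up 49.8% of Ddr48.

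**Figure D2:**
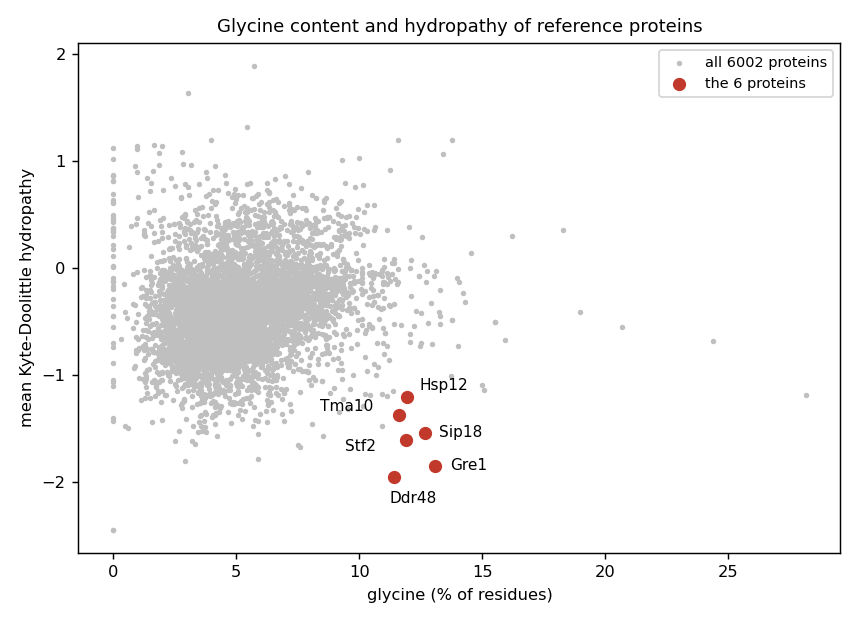
Glycine content (x axis, % of residues) against mean Kyte-Doolittle hydropathy (y axis, lower is more hydrophilic) of 6002 reference proteins (grey points) and the 6 proteins (red points). The 6 lie together at 11.4% to 13.1% glycine and -1.21 to -1.96 in hydropathy, at the lower right edge of the cloud.

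On matched genes the YJ-06 and YJ-04 libraries held 15.0 to 17.8 M reads and the YJ-09 and YJ-08 libraries 40.1 to 45.1 M. The values are FPKM, reads scaled to the length of the gene and to a total for the library. That total was not the plain read count. In replicate 2 of YJ-09 it was recovered as 40.7 M, below the 41.7 M reads on matched genes. The 2 tables were scaled separately, so levels are compared within a table only. Differences are on the scale of log2(FPKM + 1), high SAM minus low SAM, from limma, with the standard error (SE). Features whose p, adjusted by Benjamini-Hochberg, was below 0.05 are said to be called. Many features were called in both pairs: 56.7% of 6459 tested in the bikaverin pair (27.9% lower in YJ-06) and 77.5% of 6342 in the pRS416 pair (38.4% lower in YJ-09), and 57.3% of 6282 for the difference between the pairs. In bulk RNA, fewer cells that express a gene and less RNA per cell cannot be told apart. SAM1, a SAM synthetase gene, averaged 482.8 FPKM in YJ-06 and 149.3 in YJ-04, and 345.8 FPKM in YJ-09 and 96.96 in YJ-08. SAM2, another SAM synthetase gene, averaged 390.8 FPKM in YJ-06 and 134.6 in YJ-04, and 559.8 FPKM in YJ-09 and 111.1 in YJ-08. YJ-09 and YJ-08 also differed in mating-type genes, chosen here after their values were seen. HMRA1 (a1 repressor) was at 81.7 to 138 FPKM in YJ-09 and at most 0.124 in YJ-08, and STE4 (the G protein beta subunit of haploid pheromone signalling) averaged 9.19 FPKM in YJ-09 and 202.3 in YJ-08. In the bikaverin pair HMRA1 averaged 1.10 FPKM in YJ-06 and 0.053 in YJ-04, and STE4 85.4 and 102.6 FPKM in the same order of strains. The part of this difference in the results of the pRS416 pair was not tested. Rows named for the bikaverin genes stood in the pRS416 table (6 rows, none above 1.26 FPKM) and not in the bikaverin table, so the introduced genes gave no check of the bikaverin labels.

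HSP12, SIP18, GRE1, TMA10 and STF2 were lower in the high-SAM strain of both pairs, and in all 10 of these comparisons no high-SAM library reached the lowest low-SAM library. DDR48 went otherwise: its groups overlapped in the bikaverin pair, and it was higher in YJ-09 than in YJ-08. In the fit over all features 5 of the 6 were called lower and 0 higher in the bikaverin pair, where 27.9% and 28.8% of features were. In the pRS416 pair 5 were called lower and 1 higher, where 38.4% and 39.1% of features were. For the difference between the pairs 3 were called negative and 1 positive, where 29.3% and 28% of features were. Groups that did not overlap were found for 65.6% of features in the bikaverin pair, with YJ-06 lower for 32.2%, and for 80.3% in the pRS416 pair, with YJ-09 lower for 39.9% and higher for 40.4%. The median log2 difference of the 6 genes was -1.51 in the bikaverin pair, where that of all features was 0.01, and -1.36 in the pRS416 pair, where that of all features was -0.01. Under quantile normalization, which gives the same rank the same value in every library, 4 were called lower in each pair, without STF2 in the bikaverin pair and without HSP12 in the pRS416 pair. The count in the bikaverin pair was also 4, without STF2, with replicate 1 or 2 of YJ-06 or replicate 1 or 3 of YJ-04 left out. For the difference between the pairs GRE1 was called as well without replicate 1 of YJ-06, replicate 3 of YJ-04 or replicate 3 of YJ-09, with the 10 FPKM filter and with the replicate block. TMA10 was not called for this difference under quantile normalization, where HSP12 was, nor without replicate 2 or 3 of YJ-04, 2 or 3 of YJ-09, or 1 or 3 of YJ-08.

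HSP12 (chromosome VI, 107256 to 107585, plus strand, R64, like every gene of the 6 a single exon) was the most abundant transcript of the set in all 4 groups by its mean. It was at 5026, 5493 and 5739.8 FPKM in YJ-06, against 15224, 13389.9 and 14406 FPKM in YJ-04. The high-SAM libraries lay together, well below every low-SAM library. By the ratio of means it was 2.65-fold lower in YJ-06, and the log2 difference was -1.40 (SE 0.12, 95% interval -1.68 to -1.13). In the pRS416 table HSP12 was at 12310.4, 13151 and 13735 FPKM in YJ-09, against 33839.7, 34310.3 and 34674 FPKM in YJ-08. Again no library of one strain came near the other. In the ratio of means HSP12 was 2.62-fold lower in YJ-09, with a log2 difference of -1.39 (SE 0.14, 95% interval -1.70 to -1.08). Under quantile normalization this difference was -0.11 (SE 0.12), and HSP12 was at rank 1 to 3 in every library of the pRS416 table. The difference between the pairs was -0.01 (SE 0.15, 95% interval -0.35 to 0.32) with the values as deposited and -0.98 (SE 0.16) under quantile normalization.

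Among all features of a library, HSP12 held rank 1 or 2 in YJ-08, 1 to 3 in YJ-09 and 2 in YJ-04, but 13 to 16 in YJ-06. Its annotated neighbours are YFL015C, whose values are given above, and IES1, a gene of the INO80 chromatin remodelling complex. IES1 averaged 45.4 ± 2.37 FPKM in YJ-06 and 45.3 ± 0.58 in YJ-04, and rose to 33.9 ± 1.32 in YJ-09, against 21.3 ± 1.06 in YJ-08 (SD, n = 3 each; limma, log2 difference 0.65, adjusted p = 1.9e-05).

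SIP18 (chromosome XIII, 611016 to 611255, plus strand) had the largest difference of the 6 in the bikaverin pair. It was at 1073, 1489 and 1612 FPKM in YJ-06, against 9412, 9039 and 11337 FPKM in YJ-04. All 3 YJ-06 libraries were far below the YJ-04 libraries, with a ratio of means of 7.14 (YJ-04 over YJ-06). The log2 difference was -2.85 (SE 0.18, 95% interval -3.26 to -2.44), and 1.18% of all features lay lower. In the pRS416 table SIP18 was at 8961, 8259 and 10134 FPKM in YJ-09, against 38132, 27617 and 28259 FPKM in YJ-08. The groups were again apart, although replicate 1 of YJ-08 stood well above the other low-SAM libraries. Its ratio of means was 3.44 (YJ-08 over YJ-09) and the log2 difference was -1.77 (SE 0.17, 95% interval -2.16 to -1.38). The difference between the pairs was -1.08 (SE 0.25, 95% interval -1.62 to -0.54). Quantile normalization gave -0.52 in the pRS416 pair and -2.18 between the pairs.

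GRE1 (chromosome XVI, 128632 to 129138, minus strand), the paralog of SIP18, had its larger difference in the pRS416 pair. It was at 1532, 2788 and 2813 FPKM in YJ-06, against 7033, 6026 and 8255 FPKM in YJ-04. Replicate 1 of YJ-06 stood apart below the other high-SAM libraries, and even the highest YJ-06 library was under every YJ-04 library. GRE1 was 2.99-fold lower in YJ-06 by the ratio of means, and the log2 difference was -1.62 (SE 0.25, 95% interval -2.20 to -1.04). In the pRS416 table GRE1 was at 5264, 5614 and 6955 FPKM in YJ-09, against 28892, 30295 and 31271 FPKM in YJ-08. The gap between these groups was the widest of GRE1's comparisons, at 5.07-fold lower in YJ-09 by the ratio of means and a log2 difference of -2.35 (SE 0.15, 95% interval -2.68 to -2.02). Between the pairs the difference was 0.73 (SE 0.30, 95% interval 0.08 to 1.38). It was 1.02 without replicate 1 of YJ-06. Quantile normalization gave -1.40 in the pRS416 pair and -0.018 between the pairs, so that the direction of the difference between the pairs depended on the scaling.

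The balance within this paralog pair shifted in opposite directions in the pairs of strains. SIP18 stood at 0.60 ± 0.09 times the FPKM of GRE1 in YJ-06 and at 1.40 ± 0.09 times in YJ-04 (SD, n = 3 each). It stood at 1.54 ± 0.14 times the FPKM of GRE1 in YJ-09 and at 1.05 ± 0.24 times in YJ-08. In neither pair did the ratios of the libraries overlap, and YJ-06 was the only strain in which GRE1 exceeded SIP18 in every library.

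SIP18 and DDR48 lie next to each other on chromosome XIII with only PAI3 between them, 177 bases after the end of DDR48 and 650 bases before the start of SIP18. PAI3, which encodes the inhibitor of the vacuolar proteinase A, fell to 396.6 ± 35.0 FPKM in YJ-06, against 1649.8 ± 178 in YJ-04 (SD, n = 3 each; log2 difference -2.05, limma, adjusted p = 8.4e-06). It fell by nearly the same factor to 1177 ± 177 FPKM in YJ-09, against 4850.1 ± 489.5 in YJ-08 (log2 difference -2.05, limma, adjusted p = 5.9e-07). YMR175W-A, an open reading frame 58 bases beyond the end of SIP18 on the same strand, averaged 11.7 ± 3.19 FPKM in YJ-06 and 223.3 ± 30.4 in YJ-04, and 38.6 ± 4.36 FPKM in YJ-09 and 200.5 ± 37.1 in YJ-08. Its log2 differences were -4.17 and -2.34 (limma, adjusted p = 2.6e-06 and 3.8e-07), so that, as for SIP18 next to it, the bikaverin pair had the larger difference. On the other side of GRE1, FMP40, which encodes a mitochondrial AMPylase, fell in both pairs, with log2 differences of -1.21 and -1.39 (limma, adjusted p = 0.0014 and 1.8e-06). MMT2, the other neighbour of GRE1, a mitochondrial metal transporter gene, was at -0.07 in the bikaverin pair (adjusted p = 0.57) and rose by 0.23 in the pRS416 pair (limma, adjusted p = 0.023), a call that was lost without replicate 2 of YJ-08 (0.16) or replicate 3 of YJ-09 (0.18).

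TMA10 (chromosome XII, 783127 to 783387, minus strand) had its larger difference in the bikaverin pair. It was at 1705, 2443 and 2698 FPKM in YJ-06, against 7088, 7176 and 7368 FPKM in YJ-04. The YJ-04 libraries were nearly level with each other, and the YJ-06 libraries were spread more widely and all lower. TMA10 was 3.16-fold lower in YJ-06 by the ratio of means, and the log2 difference was -1.69 (SE 0.17, 95% interval -2.09 to -1.28). In the pRS416 table TMA10 was at 3365, 3809 and 4119.9 FPKM in YJ-09, against 7624, 8275 and 8120.1 FPKM in YJ-08. The groups were apart, at 2.13-fold lower in YJ-09 by the ratio of means, with a log2 difference of -1.09 (SE 0.12, 95% interval -1.35 to -0.83). The difference between the pairs was -0.59 (SE 0.21, 95% interval -1.05 to -0.13). It moved to -0.40 without replicate 1 of YJ-06, the lowest library for this gene, and to -0.46 under quantile normalization.

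STF2 (chromosome VII, 508110 to 508364, minus strand), the paralog of TMA10, differed most in the pRS416 pair. It was at 734.3, 871.7 and 1084 FPKM in YJ-06, against 1227, 1139 and 1417 FPKM in YJ-04. The groups did not overlap, but the lowest YJ-04 library was only 1.05 times the highest YJ-06 library. STF2 was 1.41-fold lower in YJ-06 by the ratio of means, and the log2 difference was -0.50 (SE 0.16, 95% interval -0.87 to -0.14), and 20.2% of all features lay lower. With single libraries left out it ran from -0.65 to -0.37, and under quantile normalization it was -0.44. In the pRS416 table STF2 was at 1272, 1331 and 1498 FPKM in YJ-09, against 3625, 3258 and 3379 FPKM in YJ-08. Here the groups were well apart, at 2.50-fold lower in YJ-09 by the ratio of means, with a log2 difference of -1.33 (SE 0.098, 95% interval -1.55 to -1.10). Between the pairs the difference was 0.82 (SE 0.19, 95% interval 0.41 to 1.24).

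As with SIP18 and GRE1, the ratio of the paralogs TMA10 and STF2 shifted in opposite directions in the pairs of strains, although TMA10 exceeded STF2 in every library. TMA10 stood at 2.54 ± 0.24 times the FPKM of STF2 in YJ-06 and at 5.76 ± 0.55 times in YJ-04 (SD, n = 3 each). It stood at 2.75 ± 0.11 times in YJ-09 and at 2.35 ± 0.22 times in YJ-08, and the ratios of the libraries overlapped in neither pair. The coding sequences of these paralogs have too little identity to count as copies under the limit of 90% over 50% of the gene, and no other copy of any of the 6 was found under it. Of the neighbours of TMA10 and STF2, YNCL0039W next to TMA10 had no value. The others showed differences smaller in size than those of the genes themselves. YLR326W, 230 bases from TMA10, rose by 0.53 and 0.95 on the log2 scale in the bikaverin and pRS416 pairs (limma, adjusted p = 0.0039 and 9.3e-06). ECT1, a phospholipid synthesis gene next to STF2, was at -0.07 and -0.11 (adjusted p = 0.49 and 0.23), and was called in the pRS416 pair without replicate 2 of YJ-09 (-0.18). SEC9, a gene of exocytic vesicle fusion on the other side of STF2, was at -0.15 in the bikaverin pair (adjusted p = 0.31) and rose by 0.20 in the pRS416 pair (limma, adjusted p = 0.011).

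DDR48 (chromosome XIII, 608689 to 609981, plus strand) was neither abundant nor lower in high SAM by the values as listed. It was at 33.7, 37.0 and 38.3 FPKM in YJ-06, against 28.2, 35.7 and 41.2 FPKM in YJ-04. The YJ-06 libraries lay inside the range of the YJ-04 libraries. The ratio of means (YJ-06 over YJ-04) was 1.04 and the log2 difference was 0.06 (SE 0.14), with a 95% interval of -0.26 to 0.38. In the pRS416 table DDR48 was at 86.4, 88.4 and 97.2 FPKM in YJ-09, against 33.7, 31.6 and 31.4 FPKM in YJ-08. Every YJ-09 library was above every YJ-08 library, at 2.81-fold higher by the ratio of means, with a log2 difference of 1.46 (SE 0.068, 95% interval 1.31 to 1.62). Between the pairs the difference was -1.40 (SE 0.16, 95% interval -1.74 to -1.05).

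DDR48 ranked between 1695 and 4338 among the features of a library. By these values the description of the set as abundant holds for the transcripts of the other genes and not for DDR48. Its values rested on 598 to 5418 reads per library, the fewest of the 6 genes. The table has a further identifier, YMR173W-A, which is not in the reference used and whose position relative to DDR48 was not analysed here. If YMR173W-A overlaps DDR48, shared reads may be missing from the values of DDR48. How such reads were counted is not known here. YMR173W-A was at 3.77, 3.57 and 3.37 FPKM in YJ-06, against 10.2, 9.30 and 9.51 FPKM in YJ-04, and at 4.85, 4.66 and 2.90 FPKM in YJ-09, against 19.9, 25.2 and 27.0 FPKM in YJ-08. It fell in both pairs, with log2 differences of -1.22 and -2.30 (limma, adjusted p = 0.00027 and 2.0e-06), where DDR48 did not. HOT1, which encodes a transcription factor of the osmotic response and ends 548 bases before DDR48, was at -0.10 in the bikaverin pair (adjusted p = 0.29) and rose by 0.34 in the pRS416 pair (limma, adjusted p = 0.0064).

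**Figure D3:**
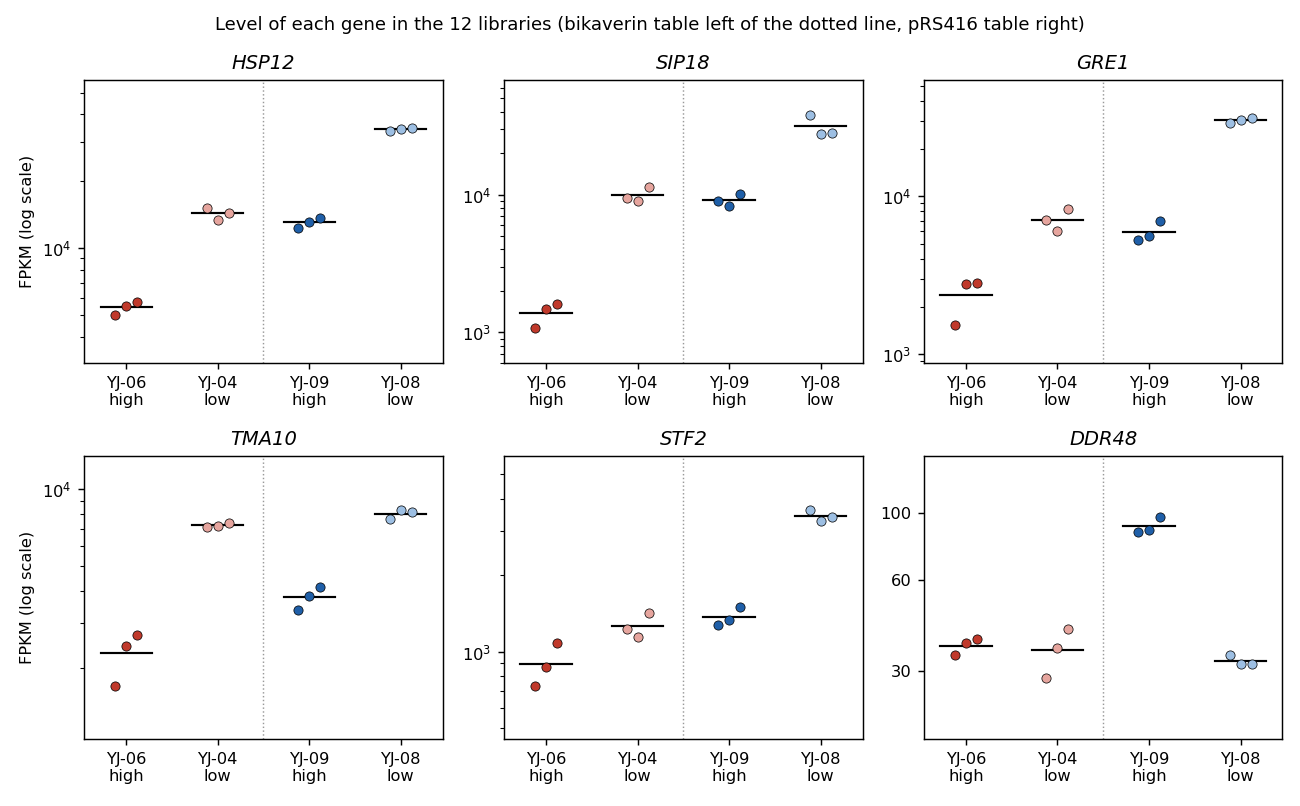
FPKM (y axis, log scale) of each gene in every library, by strain (x axis, with the level of SAM). Points are libraries, horizontal bars are means of 3, and a dotted line parts the bikaverin table (left) from the pRS416 table (right). For HSP12, SIP18, GRE1, TMA10 and STF2 the high-SAM libraries lie below the low-SAM libraries of the same table, whereas DDR48 overlaps in the bikaverin pair (28.2 to 41.2 FPKM) and is higher in YJ-09 (86.4 to 97.2 FPKM).

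**Figure D4:**
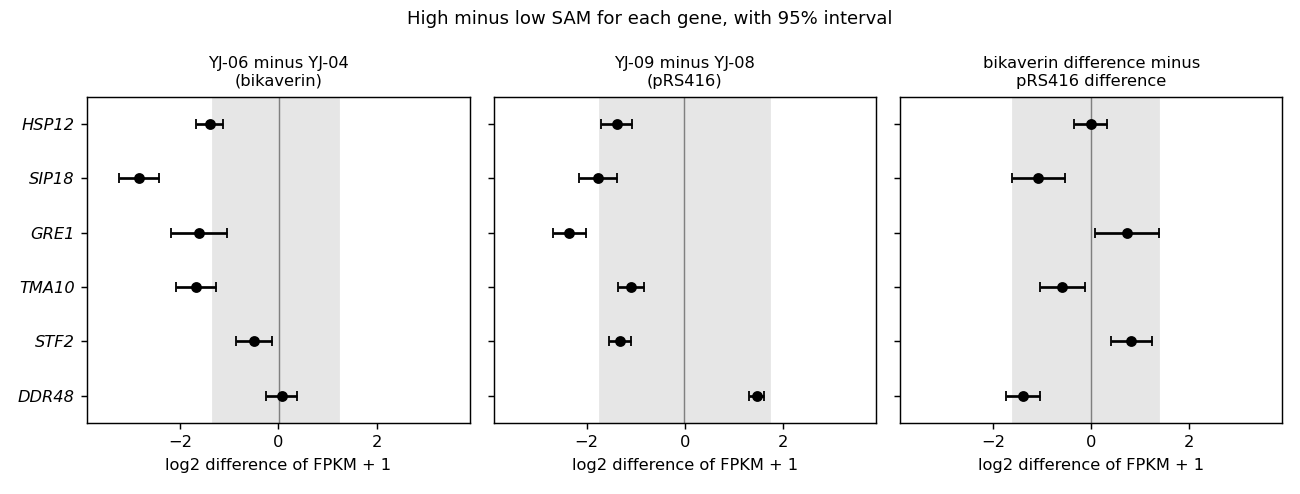
Difference between high and low SAM of each gene (x axis, log2 of FPKM + 1) in the bikaverin pair, in the pRS416 pair, and the difference between the pairs. Points are the fitted differences, bars their 95% intervals and grey bands the range from the 5th to the 95th percentile of all features. HSP12 sits at -1.40 and -1.39, SIP18 and GRE1 exchange places between the pairs, and DDR48 sits at 0.06 and 1.46.

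The 6 genes together made up 1.36% ± 0.23 of the summed FPKM in YJ-06 and 4.08% ± 0.25 in YJ-04, and 3.39% ± 0.20 in YJ-09 and 10.4% ± 0.29 in YJ-08 (SD, n = 3 each). As a share of the reads on matched genes they took 0.43% ± 0.07 in YJ-06 and 1.31% ± 0.09 in YJ-04, and 1.09% ± 0.06 in YJ-09 and 3.88% ± 0.08 in YJ-08. The share of FPKM exceeds that of reads because most of the genes are short. If values were scaled to the reads on matched genes, leaving the 6 out of that total would raise the values of other genes by a factor of 1.04 at most. The total behind the deposited values was not such a read count. In YJ-08, HSP12, SIP18 and GRE1 filled ranks 1 to 3 of all features.

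The order of the genes by level was not the same in the 4 strains. In YJ-06 the order of means was HSP12, GRE1, TMA10, SIP18, STF2 and DDR48, and the libraries of GRE1 overlapped those of TMA10 and of SIP18, and those of SIP18 overlapped those of STF2. In YJ-04 it was HSP12, SIP18, TMA10, GRE1, STF2 and DDR48, and the libraries of TMA10 and GRE1 overlapped. In YJ-09 it was HSP12, SIP18, GRE1, TMA10, STF2 and DDR48, with no overlap between neighbours in the order. In YJ-08 the order was the same as in YJ-09, and the libraries of SIP18 overlapped those of HSP12 and of GRE1. SIP18 ranked 59 to 122 among all features in YJ-06, against 5 to 7 in YJ-04, and 4 or 5 in YJ-09, against 1 to 3 in YJ-08.

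Libraries of a strain also differed together. Replicate 1 of YJ-06 was the lowest and replicate 3 the highest of that strain for all 6 genes, DDR48 included. Replicate 3 of YJ-09 was the highest of its strain for all 6. Replicate 3 of YJ-04 was the highest for 5 of the 6, whereas in YJ-08 replicate 1 was the highest for 3. Without replicate 1 of YJ-06 the log2 differences of the bikaverin pair were -1.35 for HSP12, -2.67 for SIP18, -1.33 for GRE1, -1.49 for TMA10, -0.37 for STF2 and 0.12 for DDR48. The widest relative spread was that of GRE1 in YJ-06, with a coefficient of variation of 30.8%, and the narrowest that of HSP12 in YJ-08, at 1.22%.

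The genes whose levels followed each of the 6 most closely were found by Pearson's r of log2(FPKM + 1) over the 12 libraries, each table centred on its own mean, among 5517 features with at least 10 FPKM on average in both tables. The 12 points fall into 4 groups of 3, so r follows the group means and is given as a description. For HSP12 the top 3 were PRR2 (r = 0.997, a protein kinase gene), the uncharacterized YIL014C-A (0.996) and GDH3 (0.996, an NADP-dependent glutamate dehydrogenase). GDH3 averaged 118.8 FPKM in YJ-06 and 1277 in YJ-04, and 249.97 FPKM in YJ-09 and 2227 in YJ-08, and YIL014C-A was listed at 0 in every library of both high-SAM strains and averaged 92.2 FPKM in YJ-04 and 93.0 in YJ-08. For SIP18 they were YIR016W (0.995), COX26 (0.994, a cytochrome c oxidase subunit) and CMI8 (0.993), and for GRE1 they were KKQ8 (0.998, a protein kinase gene), EMP46 (0.996, a cargo receptor of vesicle transport) and UIP4 (0.994). For TMA10 they were MNE1 (0.993), APC9 (0.989, a subunit of the anaphase-promoting complex) and ATH1 (0.988, the acid trehalase). For STF2 they were HSP32 (0.993), NNR2 (0.993, a nicotinamide nucleotide repair enzyme) and ATG36 (0.992, a receptor for the autophagy of peroxisomes), where HSP32 has a copy at 99.4% identity and is uncertain. For DDR48 they were YMR265C (0.986), GSC2 (0.986, a glucan synthase) and YPL277C (0.986), which has a copy at 96.8% identity and is uncertain. No gene was named for more than one of the 6. By Spearman's rho, which is tied for many genes over 12 libraries, COX26 held place 1 for SIP18 and APC9 shared place 2 with other genes for TMA10, and the other genes named here were at place 7 or lower. For HSP12 the places by rho were as low as 134 for PRR2, 695 for YIL014C-A and 495 for GDH3, so this likeness did not hold by rank.

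Other targets of Msn2 and Msn4 were described from a list of 40 genes without the 6. In the bikaverin pair 19 fell, 9 rose and 12 were not called, with a median log2 difference of -0.44 where that of all features was 0.01. In the pRS416 pair 20 fell, 16 rose and 4 were not called, with a median of -0.25 where that of all features was -0.01. Over all features 27.9% were called lower and 28.8% higher in the bikaverin pair, and 38.4% lower and 39.1% higher in the pRS416 pair. Of the 40 genes, 15 fell in both pairs, 9 rose in both and 1 was called in opposite directions. CTT1, the cytosolic catalase, fell to 303.9 ± 68.4 FPKM in YJ-06, against 1449 ± 238 in YJ-04 (log2 difference -2.26, limma, adjusted p = 5.3e-05), and to 706.8 ± 70.0 FPKM in YJ-09, against 2410.1 ± 27.2 in YJ-08 (log2 difference -1.77, adjusted p = 1.7e-07; SD, n = 3 each). FMP45, a gene of the cell cortex, and GLO1, the glyoxalase that detoxifies methylglyoxal, also fell in both pairs, with log2 differences of -1.57 and -2.62 for FMP45 and -0.79 and -1.07 for GLO1, bikaverin pair before pRS416 pair.

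Some targets rose where the 5 genes were low. PRB1, the vacuolar proteinase B, rose to 4082 ± 214 FPKM in YJ-06, against 1628 ± 94.3 in YJ-04 (log2 difference 1.33, limma, adjusted p = 4.2e-05), and to 3773 ± 434.5 FPKM in YJ-09, against 981 ± 18.9 in YJ-08 (1.94, adjusted p = 1.8e-07; SD, n = 3 each). YGP1, a secreted glycoprotein gene of starved cells, rose by 1.99 and 1.14, and HSP78, the mitochondrial disaggregase, by 0.91 and 2.53. CYC7, the hypoxic cytochrome c isoform, rose to 88.0 ± 15.2 FPKM in YJ-06, against 37.8 ± 4.57 in YJ-04, and to 2141 ± 341 FPKM in YJ-09, against 88.8 ± 2.03 in YJ-08 (log2 differences 1.19 and 4.56, limma, adjusted p = 0.00039 and 1.4e-09). ALD3, an aldehyde dehydrogenase gene with a copy at 91.8% identity and so uncertain, was at -0.37 in the bikaverin pair (adjusted p = 0.069, and called at -0.52 without replicate 2 of YJ-04) and fell in the pRS416 pair (-2.88). GSY2, the main glycogen synthase, fell in the bikaverin pair (-0.59) and rose in the pRS416 pair (0.21) (limma, adjusted p = 0.0011 and 0.014), and the call in the pRS416 pair was lost without replicate 3 of YJ-08 (0.19, adjusted p = 0.060).

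A further list of 18 genes was drawn up for the osmotic and desiccation response, and it also holds genes described here by other functions, such as CHA1 and MGA1. Of the 18, 9 fell, 4 rose and 5 were not called in the bikaverin pair, and 12 fell, 5 rose and 1 was not called in the pRS416 pair. The medians were -0.27 and -0.70, where those of all features were 0.01 and -0.01. In both pairs 7 fell and 3 rose, and 2 were called in opposite directions. STL1, the glycerol importer, fell to 21.1 ± 1.67 FPKM in YJ-06, against 140.5 ± 7.96 in YJ-04, and to 38.7 ± 5.38 FPKM in YJ-09, against 129 ± 2.32 in YJ-08 (log2 differences -2.68 and -1.72, limma, adjusted p = 6.9e-07 and 2.1e-07; SD, n = 3 each). ENA1, the sodium export pump, fell in both pairs (-2.05 and -3.36), but it has a copy at 98.7% identity and is uncertain, and PAI3 fell as described above. GPP2, which makes glycerol, rose by 1.47 and 1.95, and MGA1, a transcription factor gene of filamentous growth, rose by 2.93 and 2.83 in the bikaverin and pRS416 pairs. CHA1, the serine and threonine deaminase, was at 0.32 in the bikaverin pair (adjusted p = 0.10) and rose by 4.71 in the pRS416 pair. GRE2, a methylglyoxal reductase gene, rose by 0.76 in the bikaverin pair and fell in the pRS416 pair (-0.51), and CIN5, a transcription factor gene of salt tolerance, fell (-0.78) in the bikaverin pair and rose by 0.82 in the pRS416 pair (limma, adjusted p from 1.3e-05 to 0.012).

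Regulators of the response were described from a list of 33 genes, of which 12 fell, 9 rose and 12 were not called in the bikaverin pair, and 12 fell, 15 rose and 6 were not called in the pRS416 pair. The medians were -0.21 and 0.09, where those of all features were 0.01 and -0.01. MSN2 fell to 53.1 ± 5.94 FPKM in YJ-06, against 92.9 ± 3.59 in YJ-04, and to 38.8 ± 2.85 FPKM in YJ-09, against 67.3 ± 4.63 in YJ-08 (log2 differences -0.80 and -0.78, limma, adjusted p = 0.00037 and 1.3e-05; SD, n = 3 each). MSN4, named after its values were seen, averaged 310.1 ± 70.4 FPKM in YJ-06 and 308.5 ± 13.3 in YJ-04 (adjusted p = 0.93), and rose to 253.7 ± 6.65 FPKM in YJ-09, against 160.7 ± 14.5 in YJ-08 (limma, adjusted p = 3.9e-05). HOG1, the kinase of the osmotic response, rose by 0.82 and 1.04 in the bikaverin and pRS416 pairs. RAS2, which activates adenylate cyclase, fell in both pairs (-1.09 and -1.18), as did its paralog RAS1 (-0.87 and -3.37) and IGO2, which acts below the kinase Rim15 (-0.996 and -0.72). SMP1, a transcription factor gene of the Hog1 branch, rose by 0.94 and 3.77, and PSR2, a phosphatase gene of the general stress response, by 0.56 and 2.53. In both pairs 6 of the 33 fell and 7 rose. SOK2, TOR1, REG1 and IRA2, which act in the protein kinase A, TOR and glucose repression pathways, were called lower in the bikaverin pair (-0.58, -0.52, -0.55 and -0.40) and higher in the pRS416 pair (0.43, 0.42, 0.44 and 0.62). The call of IRA2 in the bikaverin pair was lost with any YJ-04 library left out (-0.43 to -0.38).

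**Figure D5:**
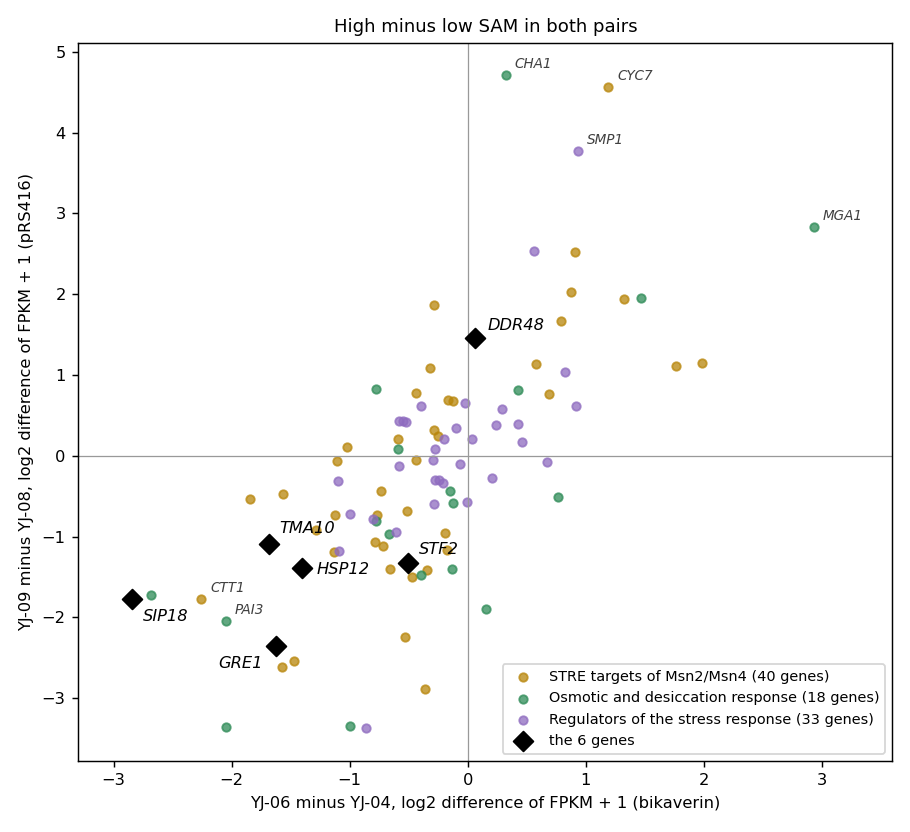
Difference between high and low SAM (log2 of FPKM + 1) in the bikaverin pair (x axis) and the pRS416 pair (y axis) for the 6 genes (black diamonds) and the genes of the 3 lists (coloured points). HSP12, SIP18, GRE1, TMA10 and STF2 lie in the lower left with CTT1 and PAI3, whereas CYC7, CHA1 and SMP1 lie far up on the pRS416 axis.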

How the data were processed

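RNA from 12 libraries was measured as FPKM, which the authors deposited as a table for the bikaverin strains and another for the pRS416 strains. Samples were ground frozen, RNA was isolated by an RNAprep Pure Plant Plus kit, and Fast RNA-seq Lib Prep Kit V2 was used for sequencing libraries, according to the labels' protocols. The submitters' processing notes name the build R64 and the tools HISAT2 2.0.5, fastp and featureCounts 1.5.0-p3. Strand setting, annotation and read filters: not given in the sources used here. Without the strand setting, reads of overlapping genes on opposite strands cannot be told apart. For genes that overlap on the same strand, no strand setting would separate the reads. No gene annotated in the R64 reference overlaps any of the 6, but YMR173W-A is not in that reference and its overlap with DDR48 was not looked up.

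Columns were joined to samples by the library name in header and label, since a label field gives other column numbers. Identifiers written differently (697) were matched between the tables, leaving 6770 features in both. By identifier 5944 and 5934 features were matched to R64. Depth was recovered from the values: multiplied by exonic length they rise in steps worth 1 read, with 97.3% to 98.8% of values under 1000 reads within 0.02 of a whole read.

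Each pair was tested within its table with limma 3.58.1 in R 4.3.3, with an intensity trend, on log2(FPKM + 1). Features averaging under 1 FPKM were left out, no replicate block was used, and p-values were adjusted with Benjamini-Hochberg over all features tested. Such differences understate changes of low genes. The difference between the pairs, (YJ-06 minus YJ-04) minus (YJ-09 minus YJ-08), was fitted on all 12 libraries. The fits were tested on simulated data. Proteins were translated from the R64 coding sequences and aligned with Biopython 1.88. Copies were sought with BLAST+ 2.17.0 (90% identity over 50% of a gene).

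The 6 genes and the 3 lists were chosen with earlier results of these data known. Named besides are the 3 genes most like each of the 6, their neighbours, and for each list the 4 genes of smallest p in each pair and those called in opposite directions. Alternatives were a pseudocount of 0.1, no filter on low values, a filter at 10 FPKM, median scaling, quantile normalization, a replicate block, each library left out, Spearman's rho, another alignment setting, AGGGGT and, added after the data were seen, 500 bases before the start.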

Additional observations from a re-analysis of the deposited data

Results flagged for a closer look

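For 27 of the 38 named list genes and neighbours tested, YMR173W-A included, the high-SAM minus low-SAM difference was not the same in both pairs. This rests on a test of the difference itself in the fit of 12 libraries (limma, Benjamini-Hochberg adjusted p of at most 0.037, where 57.3% of 6282 features were called). GSY2, GRE2, CIN5, SOK2, TOR1, REG1 and IRA2 were named because they were called in opposite directions, and other list genes for their small p. The calls of these list genes are therefore a description. Each value is the log2 difference of the bikaverin pair minus that of the pRS416 pair. Among the targets of Msn2 and Msn4 it was -3.37 for CYC7, -1.62 for HSP78, -0.80 for GSY2, -0.61 for PRB1, 0.84 for YGP1, 1.05 for FMP45 and 2.52 for ALD3. Among the genes listed for the osmotic and desiccation response it was -4.38 for CHA1, -1.60 for CIN5, -0.96 for STL1, -0.48 for GPP2, 1.27 for GRE2 and 1.30 for ENA1. Among the regulators it was -2.83 for SMP1, -1.97 for PSR2, -1.02 for IRA2, -1.01 for SOK2, -0.99 for REG1, -0.94 for TOR1, -0.68 for MSN4 and 2.50 for RAS1. Among the neighbours of the 6 genes it was -1.83 for YMR175W-A, -0.64 for IES1, -0.44 for HOT1, -0.42 for YLR326W and -0.35 for SEC9. For YMR173W-A, whose position was not analysed, it was 1.07. The calls of GPP2, SEC9 and YLR326W were lost when single libraries were left out, at -0.51 to -0.39 for GPP2, -0.35 to -0.24 for SEC9 and -0.38 to -0.34 for YLR326W. Under quantile normalization the calls of PRB1 (-0.32), MSN4 (-0.51), GPP2 (-0.32) and SEC9 (-0.27) were lost, whereas GLO1 (0.52) and MMT2 (-0.33) were called. With the replicate block those of SEC9 and YLR326W were lost, whereas CTT1 (-0.49) was called.

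The ratios of the paralogs moved in opposite directions in the pairs of strains, in every library, and this difference was not tested. For SIP18 over GRE1 the log2 ratio was lower in YJ-06 than in YJ-04 by 1.23 and higher in YJ-09 than in YJ-08 by 0.58, a difference between the pairs of -1.81. For TMA10 over STF2 it was lower in YJ-06 than in YJ-04 by 1.18 and higher in YJ-09 than in YJ-08 by 0.23, a difference of -1.41.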

How the results depend on the processing

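In the bikaverin pair the differences of SIP18, GRE1, STF2 and DDR48 moved by less than the spread between libraries under every alternative, as did DDR48 in the pRS416 pair. Quantile normalization moved the other differences of the genes near the top: in the bikaverin pair HSP12 to -1.09 and TMA10 to -1.37, and in the pRS416 pair HSP12 to -0.11, SIP18 to -0.52, GRE1 to -1.40, TMA10 to -0.91 and STF2 to -1.53. It moved the difference between the pairs to -0.98 for HSP12, -2.18 for SIP18 and 1.09 for STF2, and that of GRE1 turned to -0.018. With each library left out in turn, the difference between the pairs ran from 0.58 to 1.02 for GRE1, from -0.73 to -0.40 for TMA10 and from -1.54 to -1.28 for DDR48. The fitted difference of DDR48 in the bikaverin pair, which was not called, ran from -0.08 to 0.19.

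Members with a core in the promoter numbered 0 for AGGGGT in the narrow window and 5 for AGGGG in the window of 500 bases, which was added after the data were seen. Counts of called features and of list genes stayed within 1.5 times of those reported under every alternative. Median scaling could change little, because the median log2 ratios of the libraries already lay between -0.009 and 0.018.

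Deviations of same-numbered libraries correlated from -0.08 to 0.12 in the bikaverin pair and from -0.14 to -0.03 in the pRS416 pair. With 3 libraries in a group, these values cannot decide whether the replicate numbers pair the samples. With the replicate block 3506 features were called in the bikaverin pair and 4815 in the pRS416 pair. Among the named neighbours and list genes, the call of TOR1 in the bikaverin pair (-0.39) and those of GSY2 (0.094) and SEC9 (0.12) in the pRS416 pair were also lost under quantile normalization, and no direction turned. Of the differences of the 6 genes within a pair, those of HSP12, SIP18 and GRE1 in the pRS416 pair moved most, under quantile normalization.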
